A study of Mus musculus with 21 samples.

Results

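The transcripts of 10 genes that are characteristic of T cells and natural killer (NK) cells were followed in cultures of mouse B cell precursors: Cd3d, Cd3e, Cd3g, Gzma, Gzmb, Prf1, Nkg7, Klrd1, Ncr1 and Tbx21. The genes were listed by name, with earlier results of these data known. All 10 were found among the 24421 gene symbols of the deposited tables. Polyadenylated RNA was sequenced from bone marrow cells of 53BP1-/- C57BL/6 mice, whose genotype, shared by every condition, is null for 53BP1, a DNA repair factor. The cells were cultured with 10 ng/ml of interleukin-7, a cytokine on which B cell precursors depend, and were spinoculated with MIGR1 retroviral vectors on culture days 2 and 3. Control cells received MIGR1 without an insert (EV), and the others received MIGR1 with BCR-ABL1p210, the fusion kinase of Philadelphia chromosome-positive leukemia, or MIGR1 with C-MYC, a transcription factor that drives growth and proliferation. Cells were taken 7 to 9 days after transduction, with 2 libraries for each of the 3 conditions. The methods of the study describe the libraries of a condition as coming from duplicate experiments, and neither they nor the labels say whether these used separate mice. The p-values measure the spread between these libraries.

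T cells and NK cells are lymphocytes of lineages other than B. The CD3 chains carry the signal of the T cell receptor from the cell surface, while NK cells read other cells through receptors such as NKp46 and the CD94 heterodimers. Cytotoxic T cells and NK cells share a killing machinery in which perforin opens the target membrane and granzymes, which are serine proteases, enter and trigger death. T-bet, the product of Tbx21, is a transcription factor of type 1 T helper cells, cytotoxic T cells and NK cells.

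The libraries held between 20687092 and 24095955 counts on genes, and 12786 genes passed the filter on low counts. Myc was counted at a mean of 1488 CPM (counts per 1000000 counts of a library) in C-MYC and 159 CPM in EV, whereas Trp53bp1, which encodes 53BP1, kept between 342 and 723 counts in the 6 libraries, all of which are labelled 53BP1-/-. Counts over a whole gene do not show which exons are deleted, and the deleted exons were not checked. The B cell identity of the cultures was checked with 10 B cell precursor markers, all of which were detected in every condition. Their summed level was 8176 to 9115 CPM in EV, 7428 to 8338 CPM in BCR-ABL1 and 5552 to 7066 CPM in C-MYC. The largest part was Cd24a, with means of 2917 CPM in EV, 2058 CPM in BCR-ABL1 and 2867 CPM in C-MYC. The sum therefore understates falls of other markers in C-MYC, such as that of Cd79a from 1266 to 707 CPM. The 10 T and NK cell genes together came to 91.8 and 134 CPM in the EV libraries.

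The members lie on 7 chromosomes of GRCm38, and 3 of them are neighbours. Cd3g (chromosome 9, 44969572 to 44980431, minus strand) and Cd3d (44981786 to 44987339, plus strand) are read away from each other from starts that are 1355 bases apart, and Cd3e (44998740 to 45009627, minus strand) follows on the same chromosome. Nkg7 (43437073 to 43438249) and Ncr1 (4337724 to 4345164) both lie on the plus strand of chromosome 7, far from each other. Gzma (113093825 to 113100981, minus strand) lies on chromosome 13, Gzmb (56258838 to 56262260, minus strand) on chromosome 14 and Prf1 (61297833 to 61304680, plus strand) on chromosome 10. Klrd1 (129591782 to 129598775, plus strand) lies on chromosome 6 and Tbx21 (97098071 to 97115331, minus strand) on chromosome 11. All are annotated as protein-coding, and the positions are those of the whole genes. The promoters of 9 members were present in the RefSeq sequences of GRCm38.p6, each running from 250 bases before to 50 bases after a transcript start. Those of Gzmb and Gzma, the members with the largest fall in both oncogene conditions, are shown beside those of Prf1, which fell least in BCR-ABL1, and of the divergent pair Cd3d and Cd3g. They are written 5′ to 3′ on the strand of the gene, and capitals mark matches, on either strand, to TGTGGT (the core bound by RUNX factors, ACCACA on the other strand) or GGTGTG (the core bound by T-box factors, CACACC on the other strand).
Gzmb, chr14:56262285-56262584, minus strand: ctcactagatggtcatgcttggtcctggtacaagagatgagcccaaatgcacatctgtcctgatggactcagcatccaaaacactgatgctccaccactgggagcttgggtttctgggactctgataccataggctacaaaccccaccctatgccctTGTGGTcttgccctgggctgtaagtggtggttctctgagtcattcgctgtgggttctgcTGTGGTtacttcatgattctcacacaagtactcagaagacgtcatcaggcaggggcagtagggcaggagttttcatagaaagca
Gzma, chr13:113100932-113101231, minus strand: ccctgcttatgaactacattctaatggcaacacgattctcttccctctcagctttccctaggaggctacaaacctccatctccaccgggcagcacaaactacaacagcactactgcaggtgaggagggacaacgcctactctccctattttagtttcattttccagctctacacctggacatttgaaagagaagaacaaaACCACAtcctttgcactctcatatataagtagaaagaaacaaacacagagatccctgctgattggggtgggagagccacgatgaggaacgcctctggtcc
Prf1, chr10:61297586-61297885, plus strand: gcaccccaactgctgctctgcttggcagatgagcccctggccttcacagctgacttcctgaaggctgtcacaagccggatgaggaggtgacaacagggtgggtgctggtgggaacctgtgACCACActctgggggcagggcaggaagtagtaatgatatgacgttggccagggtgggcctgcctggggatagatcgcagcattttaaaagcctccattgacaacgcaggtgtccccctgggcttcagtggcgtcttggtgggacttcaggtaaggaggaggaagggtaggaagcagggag
Cd3d, chr9:44981536-44981835, plus strand: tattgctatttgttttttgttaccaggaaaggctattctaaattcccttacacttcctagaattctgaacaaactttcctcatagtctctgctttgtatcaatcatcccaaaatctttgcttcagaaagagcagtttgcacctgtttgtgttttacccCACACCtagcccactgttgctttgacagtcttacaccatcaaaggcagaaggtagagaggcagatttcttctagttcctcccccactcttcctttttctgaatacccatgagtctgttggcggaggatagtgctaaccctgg
Cd3g, chr9:44980382-44980681, minus strand: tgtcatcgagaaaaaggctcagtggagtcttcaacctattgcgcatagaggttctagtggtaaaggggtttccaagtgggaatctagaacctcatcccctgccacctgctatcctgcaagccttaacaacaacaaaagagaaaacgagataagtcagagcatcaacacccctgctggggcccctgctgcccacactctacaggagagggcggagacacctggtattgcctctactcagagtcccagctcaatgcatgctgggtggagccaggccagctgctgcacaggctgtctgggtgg

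In these windows TGTGGT or its complement was found in 5 of the 9 members' promoters (Gzma, Gzmb, Prf1, Nkg7 and Ncr1). Gzmb had 2 copies, at -93 and -34 from the RefSeq start. That start differs from the annotated gene given above: the Gzmb window (56262285 to 56262584) lies wholly upstream of the gene, which begins at 56262260 on the minus strand. Among all 32851 promoters of the same length, 16.8% held it. GGTGTG was found at Nkg7 and Cd3d only, and in 19.0% of all promoters. The letters TATAAA were found at 0 of the 9 members, and in 13.6% of all promoters. No 2 matches overlapped in the sequences shown. The motifs were chosen after the counts had been seen, and the matches describe letters in a window, not sites of binding.

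All 10 genes were detected in both EV libraries. Per kilobase of annotated exon, the order of their mean levels in EV was Nkg7 (19.8 CPM per kilobase), Gzmb (16.8), Gzma (7.55), Cd3d (6.06), Cd3g (5.94), Klrd1 (5.44), Cd3e (3.98), Ncr1 (2.07), Tbx21 (1.47) and Prf1 (1.00). Neighbours in this order were separated in both libraries only between Gzmb and Gzma, between Klrd1 and Cd3e and between Cd3e and Ncr1, and all other neighbours overlapped. On the FPKM scale of the authors, the order was led by Gzmb with 25.8 FPKM and Cd3g with 18.8 FPKM, and it ended with Tbx21 at 0.755 FPKM. Relative to the median gene, the ratio of FPKM to CPM per kilobase ranged from 0.282 for Nkg7 to 2.02 for Cd3g, so levels of different members are comparable only roughly. Among genes with an FPKM above 0 in EV, Gzmb was above 78.7% and Tbx21 above 33.2%.

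Compared to EV, all 10 genes were lower in BCR-ABL1 and all 10 were lower in C-MYC. Each of these decreases passed the quasi-likelihood test of edgeR at an adjusted p below 0.05 (Benjamini-Hochberg), where 12.0% of all tested genes were called lower with BCR-ABL1 and 24.5% with C-MYC. The EV libraries lay above both oncogene libraries for each member, as did 29.7% of all tested genes for BCR-ABL1 and 39.1% for C-MYC. The median log2 fold change of the 10 genes was -4.31 for BCR-ABL1 and -4.74 for C-MYC, and that of all tested genes was 0.0010 and -0.08. Only 1% of all tested genes were below -4.51 in BCR-ABL1 and below -4.95 in C-MYC. Both comparisons use the same EV libraries and are therefore not independent of each other. The members were chosen with earlier results of these data known, so the calls describe these genes and do not test the set. Gzma and Ncr1 passed the filter on low counts only through EV and could hardly be called higher. In bulk RNA, fewer cells of a type and less RNA per cell cannot be told apart.

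**Figure D1:**
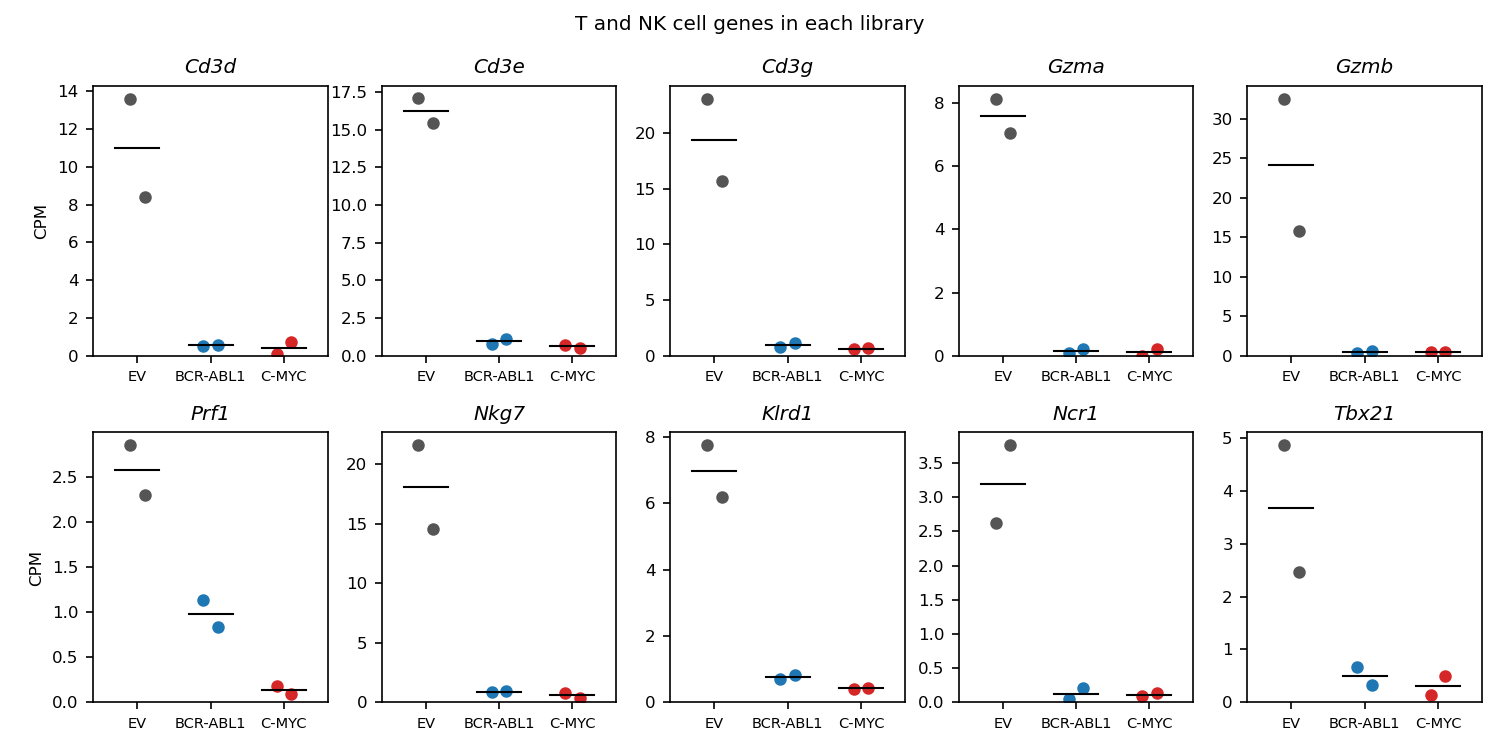
Level of each of the 10 genes in CPM (y axis, linear and starting at 0, with its own range for each gene) in the EV, BCR-ABL1 and C-MYC libraries (x axis). Points are libraries, with replicate 1 on the left, and lines are means of 2 libraries. Every EV point lies above every oncogene point, and Prf1 is the member whose BCR-ABL1 libraries stand clearly above its C-MYC libraries.

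The 3 CD3 chains, which assemble with the T cell receptor, fell by between 16.7-fold and 29.2-fold. Cd3e, the epsilon chain, had 365 and 369 counts in EV, 17 and 27 with BCR-ABL1 and 16 and 12 with C-MYC. Its EV libraries were nearly equal, and the oncogene libraries were all far lower. The level fell from 16.2 ± 1.16 CPM (SD, n = 2) in EV to 0.964 ± 0.223 CPM with BCR-ABL1 and 0.637 ± 0.139 CPM with C-MYC. This corresponds to log2 fold changes of -4.06 (SE 0.28, adjusted p = 0.000367, edgeR quasi-likelihood test, Benjamini-Hochberg) and -4.66 (SE 0.30, adjusted p = 0.000175). An annotated antisense gene and an unconfirmed transcript overlap Cd3e, and since the strand setting of the counting is not given in the sources used here, their reads cannot be told apart from those of Cd3e.

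Cd3g, the gamma chain, had 494 and 376 counts in EV, 16 and 27 with BCR-ABL1 and 13 and 16 with C-MYC. Its decrease was 20.4-fold with BCR-ABL1 and 29.2-fold with C-MYC. Cd3d, the delta chain, had 291 and 201 counts in EV, 11 and 14 with BCR-ABL1 and 2 and 16 with C-MYC. The C-MYC libraries of Cd3d were therefore uneven, while both stayed far below EV. Cd3d decreased 19.7-fold in BCR-ABL1 (log2 fold change -4.30, SE 0.58) and 26.6-fold in C-MYC (-4.73, SE 0.61). The C-MYC value of Cd3d was -3.92 without C-MYC replicate 1 and -6.81 without C-MYC replicate 2.

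Among the cytotoxic effectors, the granzymes had the largest decreases of the 10 genes. Gzmb, which encodes granzyme B and had the highest mean CPM of the members, was counted 696 and 379 times in EV, 8 and 14 times in BCR-ABL1 and 11 times in each C-MYC library. The EV libraries differed 2.05-fold from each other, and even the lower one was far above the oncogene libraries. Gzmb fell from 24.2 ± 11.8 CPM (SD, n = 2) to 0.481 ± 0.143 CPM with BCR-ABL1 and 0.500 ± 0.0082 CPM with C-MYC, that is 49.3-fold and 47.8-fold (log2 fold changes -5.62, SE 0.45, and -5.58, SE 0.45). The adjusted p-values were 0.000591 and 0.000262 in the edgeR quasi-likelihood test (Benjamini-Hochberg). Without EV replicate 1 the log2 fold changes were -5.01 and -4.97.

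Gzma, which encodes granzyme A, was counted 174 and 169 times in EV, 2 and 5 times with BCR-ABL1 and 0 and 5 times with C-MYC. It was the only member with a library at 0. With so few counts, the ratio of EV to oncogene counts, scaled by library size, was 48.8 for BCR-ABL1 (95% exact interval 23.5 to 122, counting error only) and 66.6 for C-MYC (28.3 to 207). The adjusted p-values from the edgeR quasi-likelihood test (Benjamini-Hochberg) were 0.0016 and 0.000561. Its log2 fold change in BCR-ABL1, -5.57, was -6.24 without BCR-ABL1 replicate 2, and that in C-MYC, -6.00, was -5.04 without C-MYC replicate 1. Without C-MYC replicate 2 the remaining library was at 0, and no fold is given. Reads shared between granzyme paralogs could move counts between these genes.

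Nkg7, a membrane protein of cytotoxic granules, was counted 462 and 349 times in EV, 18 and 23 times with BCR-ABL1 and 17 and 9 times with C-MYC. It followed the CD3 chains in size, with decreases of 19.8-fold with BCR-ABL1 and 30.3-fold with C-MYC. The log2 fold changes were -4.31 (SE 0.35) and -4.92 (SE 0.37).

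Prf1, which encodes perforin, was the only member called between the oncogenes, where 11.9% of all tested genes were called higher in BCR-ABL1. It was counted 61 and 55 times in EV, 24 and 20 times with BCR-ABL1 and 4 and 2 times with C-MYC, so that the 3 conditions did not overlap. The level was 2.57 ± 0.391 CPM (SD, n = 2) in EV, 0.984 ± 0.217 CPM with BCR-ABL1 and 0.137 ± 0.0665 CPM with C-MYC. In BCR-ABL1 the decrease was 2.61-fold (log2 fold change -1.39, SE 0.37, adjusted p = 0.0409, edgeR quasi-likelihood test, Benjamini-Hochberg), the smallest of the 10 genes. In C-MYC it was 18.2-fold (log2 fold change -4.18, SE 0.49, adjusted p = 0.000697). The call in BCR-ABL1 was lost with DESeq2 (adjusted p = 0.112), with only the 4 libraries compared (adjusted p = 0.0527), and when EV replicate 1 or either BCR-ABL1 library was left out.

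The NK cell receptors were lower as well. Klrd1, which encodes CD94, was counted 166 and 148 times in EV, 15 and 20 times with BCR-ABL1 and 9 and 10 times with C-MYC. All 3 conditions were separate for Klrd1, as they were for Cd3e, Cd3g, Nkg7 and Prf1, and the replicates of Klrd1 were close to each other. Between the nearest BCR-ABL1 and C-MYC libraries the gap was narrow for Cd3e (17 and 16 counts), Cd3g (16 and 16) and Nkg7 (18 and 17). None of these differences between the oncogenes was called. The share of all tested genes that are separate between the oncogenes was not counted. Klrd1 decreased 8.96-fold in BCR-ABL1 (log2 fold change -3.16, SE 0.31) and 16.0-fold in C-MYC (-4.00, SE 0.33). Ncr1, which encodes NKp46, had 56 and 90 counts in EV, 1 and 5 with BCR-ABL1 and 2 and 3 with C-MYC. Ncr1 was the only member with a higher level in EV replicate 2 than in EV replicate 1. The ratio of EV to oncogene counts of Ncr1 was 24.3 for BCR-ABL1 (95% exact interval 10.9 to 67.2) and 28.4 for C-MYC (11.9 to 88.7). Its log2 fold change in BCR-ABL1, -4.54, was -3.90 without BCR-ABL1 replicate 1 and -5.91 without BCR-ABL1 replicate 2.

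Tbx21 was counted 104 and 59 times in EV, 14 and 8 times with BCR-ABL1 and 3 and 11 times with C-MYC. The replicates of each condition were uneven for Tbx21, but the EV libraries remained apart from the others. Its level decreased from 3.66 ± 1.69 CPM (SD, n = 2) in EV 7.36-fold in BCR-ABL1 (log2 fold change -2.88, SE 0.59, adjusted p = 0.0148, edgeR quasi-likelihood test, Benjamini-Hochberg) and 11.3-fold in C-MYC (-3.50, SE 0.63, adjusted p = 0.00357). When either BCR-ABL1 library was left out, the call of Tbx21 in BCR-ABL1 was lost, as it was with limma on unfiltered log2(FPKM + 1) (adjusted p = 0.0555). Its log2 fold change in C-MYC was -2.87 without C-MYC replicate 1 and -4.67 without C-MYC replicate 2.

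**Figure D2:**
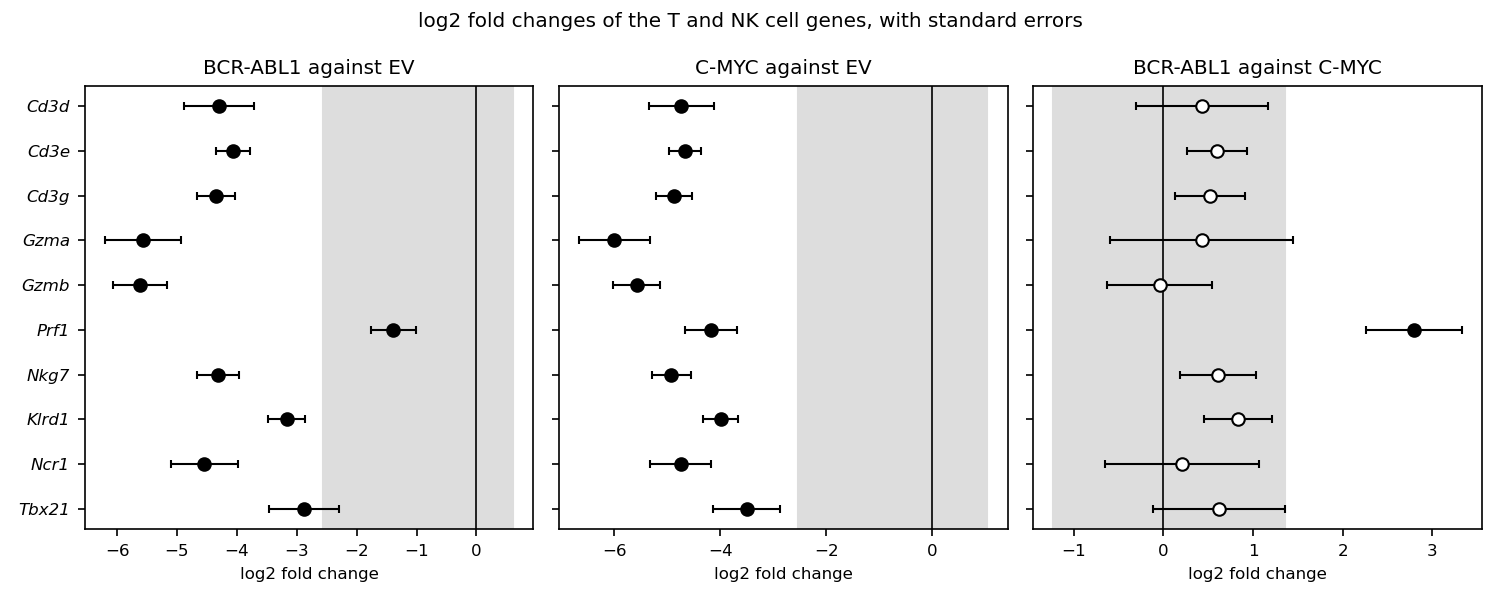
log2 fold change (x axis) of each gene (y axis) in the 3 comparisons, with standard errors as bars. Filled points have an adjusted p below 0.05, and the grey band spans the 5th to the 95th percentile of all tested genes. All members lie left of the band in C-MYC against EV, all but Prf1 do in BCR-ABL1 against EV, and only Prf1 lies outside the band in BCR-ABL1 against C-MYC.

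Between the oncogenes, only Prf1 passed the test. It was 6.95-fold higher in BCR-ABL1 than in C-MYC (log2 fold change 2.80, SE 0.53, adjusted p = 0.00959, edgeR quasi-likelihood test, Benjamini-Hochberg), where 11.9% of all tested genes were called higher. Without BCR-ABL1 replicate 1 the log2 fold change was 2.56 (adjusted p = 0.0814) and without C-MYC replicate 2 it was 2.38 (adjusted p = 0.0775), and it was 3.00 and 3.37, and still called, without the other library of each condition. Leaving out a library also cut the calls over all genes in this comparison, from 2991 to between 618 and 1291. The call of Prf1, 1 of 10 members, is near the 11.9% called higher among all tested genes. The other members differed by -0.04 (Gzmb, SE 0.59) to 0.83 (Klrd1, SE 0.38), without passing the test. Their counts were 0 to 27 per library, and the values do not show that the other members were equal in both conditions. The 95% counting interval of the C-MYC to BCR-ABL1 ratio of Ncr1, for example, ran from 0.206 to 3.36.

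The make-up of the summed level is given as a description. Gzmb contributed 17.3% and 24.3% of the 10 genes' CPM in the EV libraries, 6.35% and 8.59% with BCR-ABL1, and 11.6% and 14.3% with C-MYC. Prf1 contributed 2.13% and 2.51% in EV, but 12.3% and 19.1% in BCR-ABL1, and between 2.11% and 5.20% in C-MYC. The share of Klrd1 was 5.79% and 6.74% in the EV libraries and 11.9% and 12.3% in BCR-ABL1, whereas that of Cd3g was 17.1% to 17.2% in EV and 12.7% to 16.6% in BCR-ABL1. These shares rest on 126 and 163 counts in the BCR-ABL1 libraries and on 77 and 95 counts in the C-MYC libraries, against 2869 and 2195 counts in EV.

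**Figure D3:**
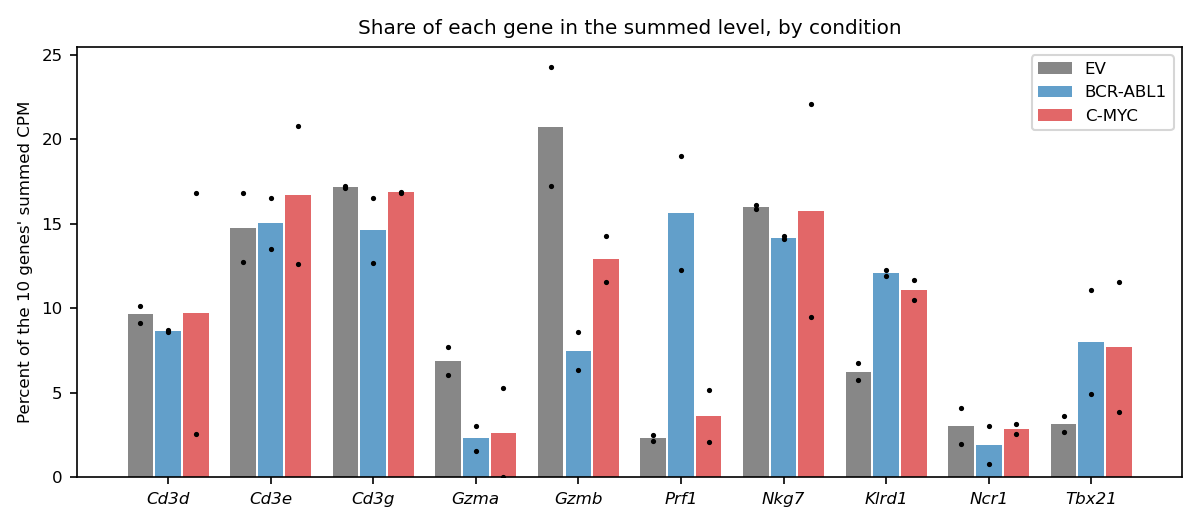
Share of each gene (x axis) in the summed CPM of the 10 genes (y axis, percent) for each condition. Bars are means of 2 libraries and points are the libraries. Prf1 takes a larger share in BCR-ABL1 than in EV or C-MYC, and both granzymes take a smaller share in the oncogene conditions than in EV.

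The EV replicates were not alike in these genes. EV replicate 1 was higher in 9 of the 10, by up to 2.05-fold, and the members' summed level was 134 CPM in replicate 1 and 91.8 CPM in replicate 2. All 10 genes passed the filter through EV. In both BCR-ABL1 libraries 6 of them reached the filter's level of 0.440 CPM, and in both C-MYC libraries 3 did (Cd3e, Cd3g and Gzmb).

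Other genes of T and NK cells were mostly lower too, but not without exceptions. For comparison with the counts of called genes in this and the other lists, 12.0% of all tested genes were called lower with BCR-ABL1 and 24.5% with C-MYC. Some listed genes passed the filter on low counts only through EV and could hardly be called higher. Genes that did not pass it are not among the tested genes. Of the tested genes for the T cell receptor complex and coreceptors, 8 of 9 were called lower with BCR-ABL1 and 7 of 9 with C-MYC, with median log2 fold changes of -1.72 and -3.27. Cd8a, a coreceptor of cytotoxic T cells, was counted 1022 and 759 times in EV, 64 and 54 times with BCR-ABL1 and 18 and 41 times with C-MYC. The exception with BCR-ABL1 was Cd2, an adhesion receptor, with 422 and 554 counts in EV, 1681 and 1507 with BCR-ABL1 and 51 and 54 with C-MYC. Bulk RNA does not show which cells gave the Cd2 reads. Cd2 rose in BCR-ABL1 (log2 fold change 1.73, SE 0.17, adjusted p = 0.000927, edgeR quasi-likelihood test, Benjamini-Hochberg) and fell in C-MYC (-3.17, SE 0.20, adjusted p = 0.000175). The genes not called in C-MYC were Thy1, a surface glycoprotein of T cells, with a log2 fold change of -0.34 (SE 0.27), and Cd28, a costimulatory receptor, with -0.91 (SE 0.33). Cd28 was chosen for naming after its values were seen. Trac, Trbc1, Trbc2 and Trdc, which encode constant regions of the T cell receptor chains, were absent under these symbols from the deposited tables. Their levels could therefore not be checked.

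Of 13 tested genes of T cell receptor signalling, 8 were lower with BCR-ABL1 and 10 with C-MYC (medians -1.24 and -1.58 on the log2 scale). Lck, the kinase that phosphorylates the CD3 chains, had 2497 and 2229 counts in EV and 2627 and 2623 in BCR-ABL1, and fell to 1221 and 1093 in C-MYC (log2 fold change -0.996, SE 0.15). Among T and NK cell transcription factors, 9 of 13 were lower with BCR-ABL1 and 11 of 13 with C-MYC (medians -2.40 and -1.98). Tcf7, which encodes TCF-1, fell from 1108 and 811 counts in EV to 252 and 239 with BCR-ABL1 and 192 and 156 with C-MYC, whereas Runx3 passed the test in neither (log2 fold changes -0.72, SE 0.39, and -0.22, SE 0.38).

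Of the other genes of cytotoxic granules and secretion, 5 of 11 were lower with BCR-ABL1 and 7 of 11 with C-MYC (medians -0.47 and -0.91). The most abundant members of that list are not restricted to killer cells: Srgn, the granule proteoglycan serglycin, fell with log2 fold changes of -0.88 (SE 0.16) and -0.97 (SE 0.16), and Ctsc, the protease that activates granzymes, passed the test in neither (-0.33, SE 0.12, and -0.23, SE 0.12). NK cell receptors and adaptors were lower in 12 of 13 tested genes in BCR-ABL1 and in 13 of 13 in C-MYC (medians -3.52 and -3.25). Il2rb, a receptor chain for interleukin-2 and interleukin-15, had 1881 and 1162 counts in EV, 80 and 84 with BCR-ABL1 and 155 and 148 with C-MYC.

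Genes around T-bet and interferon-gamma were lower in 7 of 8 tested cases in BCR-ABL1 and in 8 of 8 in C-MYC (medians -3.79 and -4.01). Stat4, which relays interleukin-12 signals, was the one not called in BCR-ABL1, with 1519 and 1145 counts in EV, 1768 and 1906 with BCR-ABL1 and 227 and 219 with C-MYC. The difference of Stat4 between BCR-ABL1 and C-MYC was 3.01 on the log2 scale (SE 0.20, adjusted p = 0.000358, edgeR quasi-likelihood test, Benjamini-Hochberg). Ccl5, a chemokine of activated T and NK cells, followed the members, with 696 and 374 counts in EV, 28 and 33 with BCR-ABL1 and 11 and 14 with C-MYC.

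Markers of several myeloid cell types moved with the T and NK cell genes. All 7 tested mast cell and basophil markers were lower in both oncogene conditions, from a summed 133 to 194 CPM in EV to 8.73 to 14.6 CPM in BCR-ABL1 and 16.9 to 20.8 CPM in C-MYC. All 7 tested neutrophil markers were lower in both as well, from 328 to 1029 CPM in EV to 26.4 to 40.4 CPM and 27.9 to 37.4 CPM. Monocyte and macrophage markers fell in 9 of 9 genes in BCR-ABL1 and in 7 of 9 in C-MYC, from 898 to 1221 CPM in EV to 148 to 182 CPM and 258 to 440 CPM. Of 6 tested plasmacytoid dendritic cell markers, 5 were lower in each. Most of the level of that list in EV, 1053 to 1287 CPM, came from Spib and Irf8 (means of 594 and 565 CPM). Bulk RNA does not show which cells gave the reads of Spib and Irf8. Of the 10 B cell precursor markers, 2 were lower with BCR-ABL1 and 8 with C-MYC. Alas2, the only erythroid marker that was tested, had 28 and 12 counts in EV, 29 and 24 with BCR-ABL1 and 17 and 20 with C-MYC, and passed the test in neither comparison with EV (log2 fold changes 0.40, SE 0.50, and -0.09, SE 0.52). Several NK cell adaptors, such as Fcer1g and Tyrobp, are also expressed by myeloid cells. The part of these markers in the decrease of the T and NK cell genes was not tested.

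**Figure D4:**
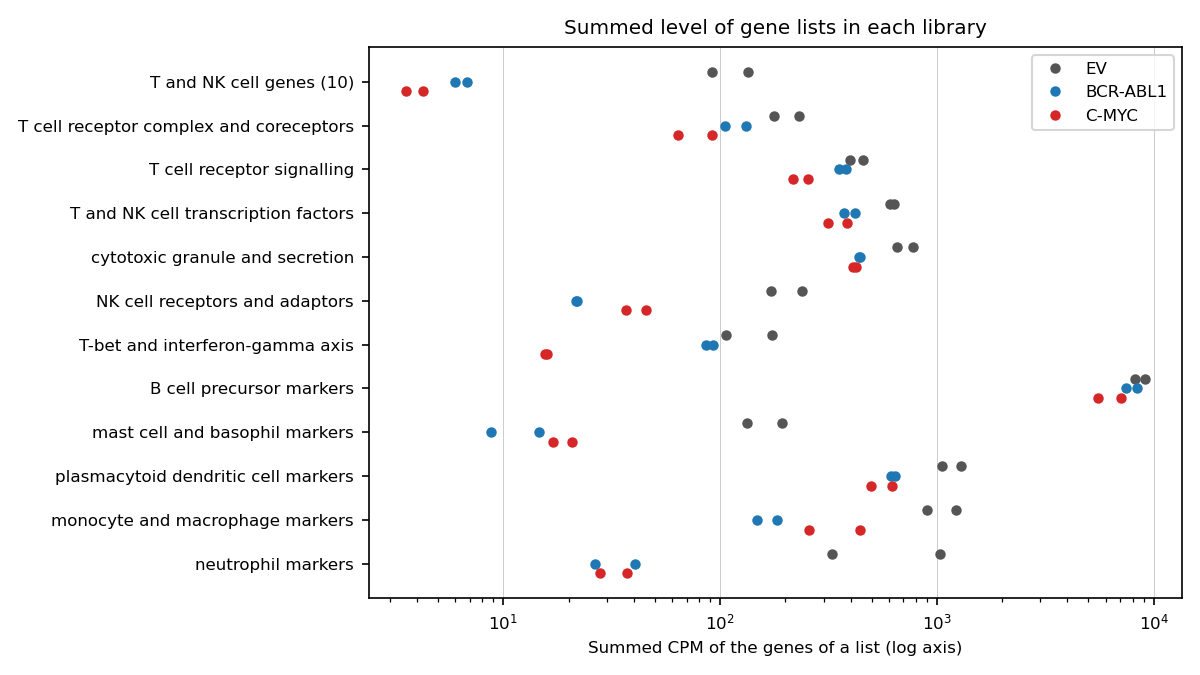
Summed CPM (x axis, log scale) of the genes of each list (y axis) in each library, with 1 point for a library. The 10 T and NK cell genes, the mast cell and basophil markers and the neutrophil markers drop from EV to both oncogene conditions by more than the B cell precursor markers, which stay at or above 5552 CPM.

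The genes whose log2 CPM followed Gzmb most closely over the 6 libraries, among the 10622 genes whose counts averaged 50 or more, were Ehd3 (Pearson r = 0.998), Cd160 (0.997), Cd96 (0.997), Aagab (0.997) and Maf (0.997). The 6 points share their conditions, and the values are a description. The size of the change was not part of the measure. Cd96 was counted 454 and 308 times in EV and between 26 and 35 times in the oncogene libraries, whereas Aagab had 846 and 916 counts in EV and between 703 and 811 in the others. Of the members, Cd3g ranked 8 in likeness to Gzmb, Cd3e 31, Nkg7 42, Klrd1 60, Gzma 115 and Cd3d 251, and Prf1, Ncr1 and Tbx21 were below the minimum count.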

How the data were processed

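Poly(A) RNA-seq of 6 libraries was analysed, with conditions from the sample labels. The ChIP-seq libraries of the series were not used here. The authors aligned reads to GRCm38/mm10 with STAR 2.5.0, and deposited unnormalized counts per gene symbol and FPKM values calculated with StringTie 1.3.0. The counting program and its strand setting are not given in the sources used here. Files held 0 columns of other samples.

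From the counts, edgeR 4.0.16 (R 4.3.3) was used with filterByExpr, TMM scaling and 1 model of all 6 libraries without covariates. The quasi-likelihood test gave p-values that were adjusted over 12786 genes (Benjamini-Hochberg) and called below 0.05. CPM values are TMM-scaled. Log2 FPKM values have a pseudocount of 1 or 0.1 in the alternatives with limma 3.58.1, and DESeq2 1.42.0 was another alternative. Intervals of count ratios are exact (95%) and cover counting error only. Exon lengths and positions are from the GENCODE annotation of GRCm38, and promoters from RefSeq (GRCm38.p6). Python 3.11.15 with pandas 2.3.3 and matplotlib 3.10.9 was used.

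All 10 members are named, with at most the 4 genes of highest mean CPM of each of 12 other lists and the 5 genes most like Gzmb. The summed level of the erythroid marker list is not reported here. The members and lists were chosen with earlier results of these data known. The common biological coefficient of variation was 0.151, so the spread between 2 libraries, and for low members the counts, limit precision. On simulated counts, edgeR recovered 91% of 200 genes changed in C-MYC against EV among 12569 genes, with 20 false calls. The changed genes were drawn only from genes above a lower limit on mean CPM. The recovery therefore does not cover Cd3d, Gzma, Prf1, Klrd1, Ncr1 and Tbx21, whose means over the 6 libraries, 1.14 to 3.99 CPM, lay below that limit.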

Additional observations from a re-analysis of the deposited data

How the results depend on the processing

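All 10 members stayed lower in BCR-ABL1 and in C-MYC than in EV in every alternative run. In C-MYC against EV all 10 stayed called in each. In BCR-ABL1 against EV between 8 and 10 were called when a library was left out, with the calls of Prf1 and Tbx21 lost, and 9 with DESeq2, with only the 4 libraries compared or with limma on unfiltered log2(FPKM + 1). Where a condition kept 1 library, that library was assumed to vary like those of the other conditions. The median log2 fold change of the members, -4.31 in BCR-ABL1 and -4.74 in C-MYC, was -2.63 and -2.71 with limma on log2(FPKM + 1), a scale on which the changes of low genes are understated.

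In BCR-ABL1 against C-MYC, 1 member was called, and 2 with limma on log2(FPKM + 0.1), where Klrd1 (0.90, adjusted p = 0.0306) joined Prf1. Leaving out a library gave 0 to 1 calls, with 0 without BCR-ABL1 replicate 1 or C-MYC replicate 2. Uncalled differences changed sign. Over the fits without a library, Cd3d ranged from -0.37 to 2.52, Gzma from -0.53 to 4.85, Gzmb from -0.40 to 0.22, Ncr1 from -1.18 to 0.84 and Tbx21 from -0.0053 to 1.80, and with limma on log2(FPKM + 1) Gzmb was 0.0037, with or without the filter. The upper value of Gzma is against a library at 0 counts and is no bound. The cause was not tested. With only the 4 libraries compared, 2 members (Gzma and Ncr1) did not pass the filter.

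With a replicate block, 10, 10 and 1 members were called, as without it. The labels tie the libraries by no more than a number: deviations of same-numbered libraries correlated at 0.273, 0.236 and 0.204 over 12786 genes, with 2 pairs in each comparison. Over all genes, the block moved calls higher in BCR-ABL1 than in EV from 650 to 1221. Without 1 BCR-ABL1 library, calls lower than in EV went from 1530 to 547 or 586. Calls in C-MYC against EV went from 5515 to 3329 or 3563 without a C-MYC library. Calls between the oncogenes went from 2991 to between 618 and 1291 without a library, to 4538 with only the 4 libraries compared and to 1412 with limma on unfiltered values. DESeq2's size factors moved the median log2 fold change by at most 0.04. At counts near 0, a member's fold change is limited by depth.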
